A study of Sus scrofa with 35 samples.

Results

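Transcripts of complement components, clusterin and alpha-2-macroglobulin were followed under heat in the back muscle (longissimus dorsi) of growing castrated male pigs. The genes were CLU, A2M, C1QA, C1QB, C1QC, C1R, C1S, C3 and CFD, and the measurements were all non-control array probes that carry one of these names, whatever the case of the letters. The 9 genes were chosen by their measured differences between heat stress and thermoneutrality in these same animals, so those differences are given here as a description, with no test. Among 60305 probes, 20 carried the name of a member, for 8 of the 9 genes, and all 20 were bright enough to be kept, as were 41517 of all probes. No probe carried the name CFD. A probe that the RefSeq gene table ties to CFD through its gene number lay outside the rule and is described apart from the others.

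Large White pigs, Creole pigs and F1 crosses of both breeds were sampled at thermoneutrality (TN) or under heat stress (HS), which gave 6 groups: Creole TN (n = 6), Creole HS (n = 6), F1 TN (n = 6), F1 HS (n = 5), Large White TN (n = 6) and Large White HS (n = 6). TN is labelled 24 °C and HS 30 °C, but the protocol that accompanies the labels and the methods both put the heat challenge at 32 °C, and the disagreement could not be settled. The challenge was set at 5 days, with HS animals killed on day 4 or 5 of it. According to the methods all TN animals were killed before the room was warmed and all HS animals, from other pens, afterwards, so temperature, slaughter day, age and pen cannot be told apart. The animals of a breed came from a few litters, which are not in the labels, and all animals were treated as independent. By the methods each pen held pigs of a single breed. Neither pen nor litter is in the labels, so their effects could not be separated from breed.

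Complement is an ancient arm of innate immunity. In the classical pathway the C1q molecule, built of the chains encoded by C1QA, C1QB and C1QC, binds antibody, dying cells or other surfaces, and the proteases C1r and C1s that it carries then cleave C4 and C2 to form an enzyme that splits C3, the component on which all pathways converge. Factor D, encoded by CFD and made in quantity by fat cells, starts the amplification loop of the alternative pathway. Clusterin is a secreted chaperone that holds unfolded proteins in solution and also blocks the terminal complement complex, and alpha-2-macroglobulin is a relative of C3 that traps proteases. Liver supplies most of these proteins to plasma, whereas C1q comes mainly from macrophages, and local synthesis by macrophages and connective tissue cells is known in many tissues.

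The data were 35 arrays, 1 per animal, on which 58.4% to 75.9% of probes were well above background. All 11 skeletal muscle markers examined were measured. Values are quantile-normalised spot intensities on the log2 scale, on which a difference of 1 is a 2-fold difference. A gene is represented by its probe with the highest mean unless another probe is mentioned, and levels of different probes are not compared. Before normalisation HS arrays were somewhat brighter than TN arrays: the 75th percentile of intensity was 9.24 ± 0.24 (SD, n = 17) on HS arrays and 9.05 ± 0.17 (SD, n = 18) on TN arrays, on the log2 scale. The array of Creole TN replicate 1 stood apart, with the lowest value of its group for all 8 genes and the lowest macrophage and fibroblast marker means of the 35 arrays. The HS minus TN differences over all breeds are also given without it, as are the C1QA and C1R breed differences.

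Sequences of probes for CLU, for C1q chains and for 1 C3 sequence present on 2 spots are shown because agreement and disagreement between probes decide how the values below can be read. They are 60 bases long, read 5′ to 3′ from the scanner files. In the dimmer C1QB probe the capitals mark the codons that would encode glycine on the opposite strand, in that strand's only reading frame without a stop codon.
CLU: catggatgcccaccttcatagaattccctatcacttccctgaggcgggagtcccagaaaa
C3, on 2 spots: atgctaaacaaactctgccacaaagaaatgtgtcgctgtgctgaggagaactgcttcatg
C1QA, dimmer probe: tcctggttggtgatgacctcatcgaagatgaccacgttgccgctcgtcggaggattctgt
C1QB, brighter probe: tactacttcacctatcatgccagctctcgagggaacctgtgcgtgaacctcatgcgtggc
C1QB, dimmer probe: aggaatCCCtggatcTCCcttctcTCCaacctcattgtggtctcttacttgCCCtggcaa
C1QC: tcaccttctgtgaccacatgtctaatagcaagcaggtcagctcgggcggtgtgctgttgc

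Heat stress and thermoneutrality were set side by side over the 3 breeds. Of the 20 member probes, 14 had an adjusted p below 0.05 in the fit over all probes, beside 16% of all probes, and all 14 were higher in HS. By the brightest probe 7 of the 8 genes were past that threshold, the exception being C1QC, beside 18.3% of all gene names. These counts follow from the choice of the genes and nothing is read from them. In all, 19 of the 20 probes were higher in HS, and the median difference over the 8 genes was 0.57, beside -0.03 over all gene names. With the brightness of each array as a covariate the differences were 1.43 (SE 0.29) for CLU, 1.43 (SE 0.23) for C3 and 0.98 (SE 0.29) for A2M. In that fit C1QA, C1QB, C1QC, C1R and C1S were not past the threshold, and 2092 of 41517 probes were called. In whole muscle a larger or smaller number of cells of a type and more or less RNA per cell cannot be told apart.

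**Figure D1:**
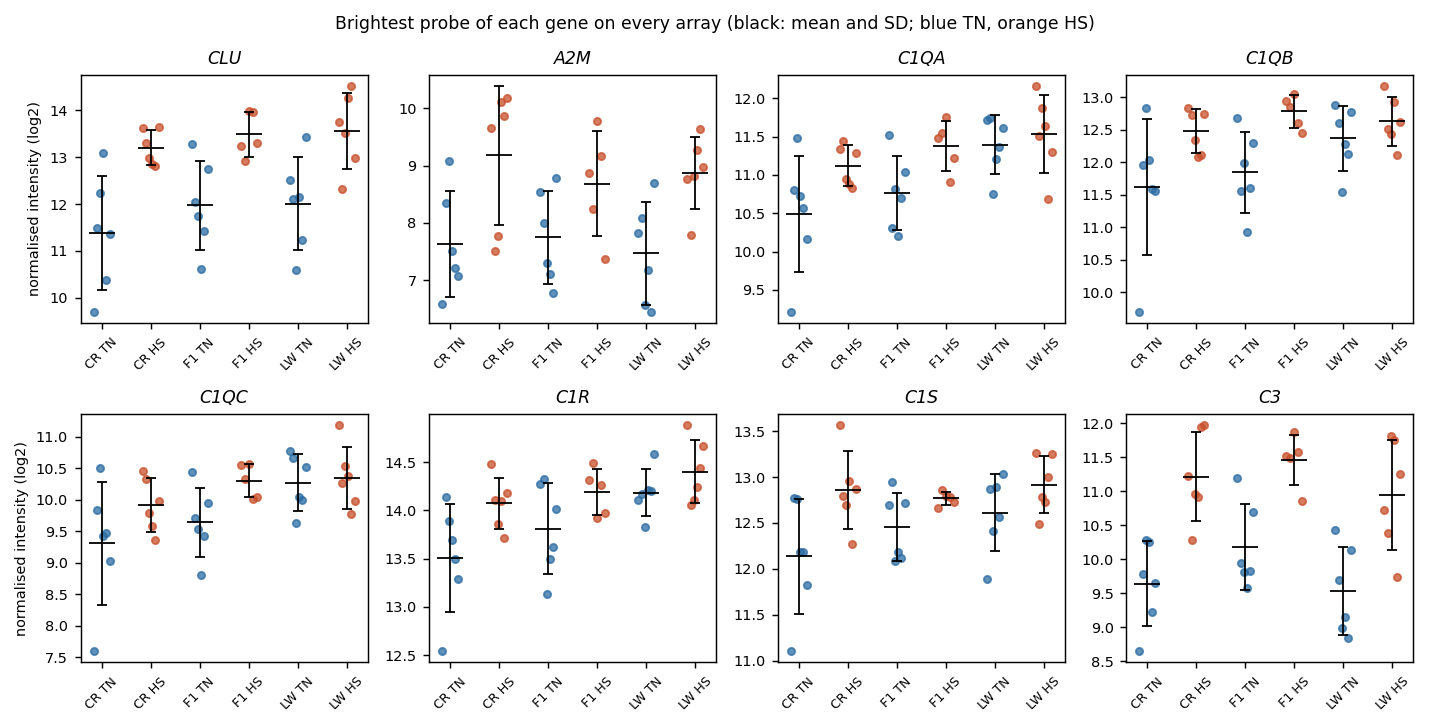
Normalised intensity (log2, vertical axis, scale differing between panels) of the brightest probe of each of the 8 genes on every array in the 6 groups (CR, Creole; LW, Large White), with group mean and SD in black. The HS arrays of CLU span 12.32 to 14.52 and the TN arrays 9.70 to 13.44, and 1 Creole TN array lies lowest in its group in every panel.

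Clusterin showed the widest difference of the 8 genes. The CLU probe read 9.70 on the lowest, 11.89 on the median and 13.44 on the highest of the 18 TN arrays, and 12.32, 13.31 and 14.52 on the 17 HS arrays. The ranges overlapped, but 13 TN arrays lay below the lowest HS array and all 17 HS arrays lay above the TN mean of their breed. The mean was higher in HS by 1.63 (SE 0.27), or 3.10-fold. The 5 F1 HS arrays lay between 12.91 and 13.99, and the spread was smaller in HS (SD 0.58) than in TN (SD 1.04). Without Creole TN replicate 1 the difference was 1.52 (SE 0.26).

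C3, the central component, was higher in HS by 1.42 (SE 0.20), or 2.68-fold. Its brightest probe read 8.65, 9.80 and 11.20 on the lowest, median and highest TN arrays, and 9.74, 11.26 and 11.97 on the HS arrays. All 17 HS arrays exceeded the TN mean of their breed and 10 exceeded the highest TN array. All 6 C3 probes gave the same picture, with differences from 1.02 to 1.46 and correlations with the brightest probe of 0.98 to 1.00 over the 35 arrays. The smallest of these differences belonged to the dimmest C3 probe, which averaged 7.69. The sequence printed above occupied 2 spots, which differed in level by 0.44 ± 0.11 (SD over 35 arrays) and tracked each other with r = 0.99, and their HS minus TN differences were 1.35 (SE 0.19) and 1.41 (SE 0.20).

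A2M, the protease trap related to C3, was higher in HS by 1.30 (SE 0.29), or 2.47-fold, and by 1.32 (SE 0.30) on its other probe. TN arrays read 6.45, 7.41 and 9.09 (lowest, median, highest) and HS arrays 7.38, 8.97 and 10.18. Of the HS arrays, 8 lay above the highest TN array and 15 of 17 above the TN mean of their breed, and the 6 Creole HS arrays alone ran from 7.51 to 10.18. The 2 probes correlated with r = 0.99. Without Creole TN replicate 1 the difference was 1.23 (SE 0.29) for A2M and 1.36 (SE 0.20) for C3.

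The recognition molecule C1q was higher in HS by less. C1QB read 9.70, 12.01 and 12.88 on TN arrays and 12.07, 12.62 and 13.18 on HS arrays, a difference of 0.68 (SE 0.19), with 16 of 17 HS arrays above the TN mean of their breed. C1QA read 9.22, 10.81 and 11.74 on TN arrays and 10.69, 11.34 and 12.16 on HS arrays, a difference of 0.45 (SE 0.16). C1QC read 7.60, 9.77 and 10.78 on TN arrays and 9.35, 10.26 and 11.18 on HS arrays, a difference of 0.44 (SE 0.19). In all 3 chains the lowest TN value was that of Creole TN replicate 1 and the ranges overlapped widely. Without that array the differences were 0.55 (SE 0.15) for C1QB, 0.37 (SE 0.14) for C1QA and 0.33 (SE 0.16) for C1QC.

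The dimmer probes of C1QA and C1QB did not follow the brighter ones. The dimmer C1QA probe averaged 6.09 and was higher in HS by 0.10 (SE 0.06), and its correlation with the brighter probe over the 35 arrays was 0.38. The dimmer C1QB probe averaged 7.87 and was lower in HS by 0.13 (SE 0.06), the only member probe with a negative difference, and its correlation with the brighter probe was -0.43. C1q chains begin with a collagen-like stretch in which glycine recurs at regular spacing. Read on its opposite strand, in the only frame there without a stop codon, the dimmer C1QB probe holds 4 glycine codons among 20. All 4 are marked above. As printed the same probe has 3 frames without a stop codon. Whether its orientation bears on its values was not tested. The dimmer C1QA probe has 2 frames without a stop codon on each strand, and its orientation was not tested either. A probe outside the rule with 58 bases in common with the brighter C1QA probe gave 0.46 (SE 0.16), with r = 0.99.

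C1R and C1S, which encode the proteases of the C1 complex, are neighbours in the RefSeq gene table of the Sscrofa11.1 assembly, as are the 3 C1q genes. C1R read 12.54, 13.95 and 14.59 on TN arrays and 13.72, 14.18 and 14.88 on HS arrays, a difference of 0.39 (SE 0.12), and of 0.30 (SE 0.13) on its other probe. C1S read 11.11, 12.49 and 13.04 on TN arrays and 12.27, 12.79 and 13.57 on HS arrays, a difference of 0.45 (SE 0.13). Its 4 probes ranged from 0.37 to 0.45 and correlated with the brightest at 0.93 to 0.99, the closest of them sharing 58 of its 60 bases. The ranges overlapped for both genes, with 15 of 17 HS arrays above the TN mean of their breed for C1R and 16 of 17 for C1S, but only 2 and 3 of them above the highest TN array. Without Creole TN replicate 1 the differences were 0.32 (SE 0.11) and 0.38 (SE 0.12).

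**Figure D2:**
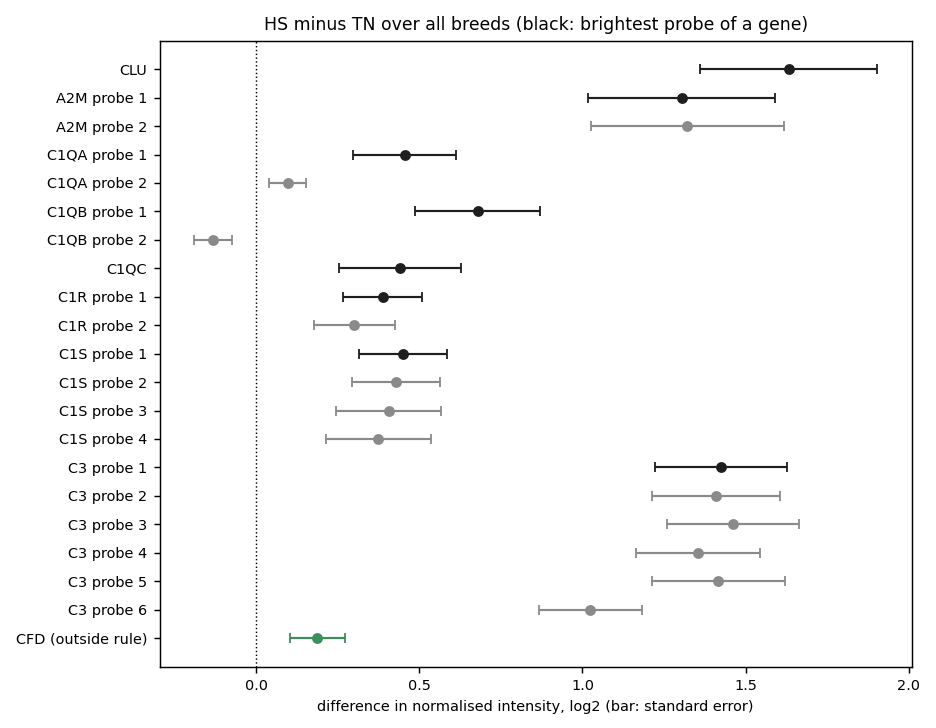
HS minus TN difference (log2, horizontal axis, bar 1 standard error) of every member probe over all breeds, ordered by gene and then by brightness, with the CFD probe outside the rule in green. The CLU, A2M and C3 probes lie between 1.02 and 1.63, the brightest C1q, C1R and C1S probes between 0.39 and 0.68, and the dimmer C1QB probe at -0.13.

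The probe tied to CFD, the alternative pathway protease, read 13.24, 13.78 and 14.11 on TN arrays and 13.19, 13.98 and 14.27 on HS arrays. The difference was 0.19 (SE 0.08), and the HS range enclosed the whole TN range. A pair of probes that overlap it gave 0.17 (SE 0.09) and 0.18 (SE 0.08).

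Breed by breed, the members kept the same sign in Creole, F1 and Large White pigs. CLU was higher in HS by 1.82 (SE 0.47) in Creole, 1.51 (SE 0.50) in F1 and 1.55 (SE 0.47) in Large White. C3 was higher by 1.57 (SE 0.35), 1.28 (SE 0.37) and 1.41 (SE 0.35), and A2M by 1.54 (SE 0.50), 0.93 (SE 0.52) and 1.40 (SE 0.50). The C1q chains had their smallest differences in Large White, with 0.13 (SE 0.27) for C1QA, 0.26 (SE 0.33) for C1QB and 0.08 (SE 0.32) for C1QC, against 0.61 to 0.86 in Creole and 0.62 to 0.94 in F1. The Creole values include Creole TN replicate 1 and are not given without it. That array read 9.22 for C1QA, 9.70 for C1QB and 7.60 for C1QC, beside Creole TN medians of 10.64, 11.77 and 9.44, which widens the Creole differences. In the test of the breed by temperature interaction none of the 20 probes was called, beside 0% of all probes. The lowest adjusted p of a member was 0.963. No member probe had an unadjusted p below 0.05, beside 1593 of all 41517 probes, and nothing is read from this.

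By group mean the 3 HS groups came before the 3 TN groups for CLU, A2M, C3, C1QB and C1S. For CLU the order began with HS, Large White at 13.56 ± 0.81 (SD, n = 6), F1 at 13.49 ± 0.48 (SD, n = 5) and Creole at 13.20 ± 0.37 (SD, n = 6), followed by Large White TN at 12.01 ± 0.99, F1 TN at 11.97 ± 0.95 and Creole TN at 11.38 ± 1.22 (SD, n = 6 each). The step between Creole HS and Large White TN, 1.19, was the only one wider than the larger SD of the neighbours. A2M likewise had its 3 HS groups first, from 9.18 to 8.69, and its 3 TN groups last, from 7.75 to 7.47, with the step of 0.93 between F1 HS and F1 TN just past the larger SD of 0.91. C3 followed the same division, from 11.46 in F1 HS to 9.54 in Large White TN, but none of its 5 steps exceeded the SD. C1QB ran from 12.78 in F1 HS to 11.61 in Creole TN and C1S from 12.92 in Large White HS to 12.14 in Creole TN. C1QA, C1QC and C1R were ordered otherwise, since the mean of Large White TN, 11.40, 10.27 and 14.18, lay above that of Creole HS, 11.12, 9.91 and 14.07. No step between neighbours exceeded the larger SD for C1QA, C1QB, C1QC, C1R or C1S.

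Each of 4 slides held 4 TN and 4 HS arrays. Within slides, all 8 genes and the CFD probe were higher in HS on 4 of 4 slides. CLU ranged from 0.92 to 3.10 between slides, C3 from 1.04 to 1.60 and A2M from 0.30 to 1.91. C1R and C1S were close to 0 on 1 slide, with lowest values of 0.03 and 0.02, and reached 0.78 and 0.97 on another.

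The genes were not chosen by the breed comparisons, which were tested, although earlier results of these data were known when the genes were chosen. Creole muscle had lower levels of C1QA and C1R than Large White muscle over both temperatures, in a fit that takes no account of pen or litter. C1QA was lower by 0.66 (log2 difference -0.66, SE 0.19, adjusted p = 0.0441), with 11 of 12 Creole arrays below the Large White mean of their temperature. C1R was lower on both of its probes, with differences of -0.50 (SE 0.15, adjusted p = 0.0451, 11 of 12 arrays) and -0.55 (SE 0.15, adjusted p = 0.0333, 12 of 12 arrays). These 3 probes of 20 were the called ones, beside 3.64% of all probes, and 2 of the 8 genes passed by their brightest probe. The dimmer C1QA probe, whose orientation was not tested, was at -0.04 (SE 0.07, adjusted p = 0.877). C1QC had the widest difference, -0.70 (SE 0.22), but did not pass (adjusted p = 0.0774, 10 of 12 arrays), and neither did C1QB at -0.45 (SE 0.23, adjusted p = 0.350) or C1S at -0.27 (SE 0.16, adjusted p = 0.467).

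**Figure D3:**
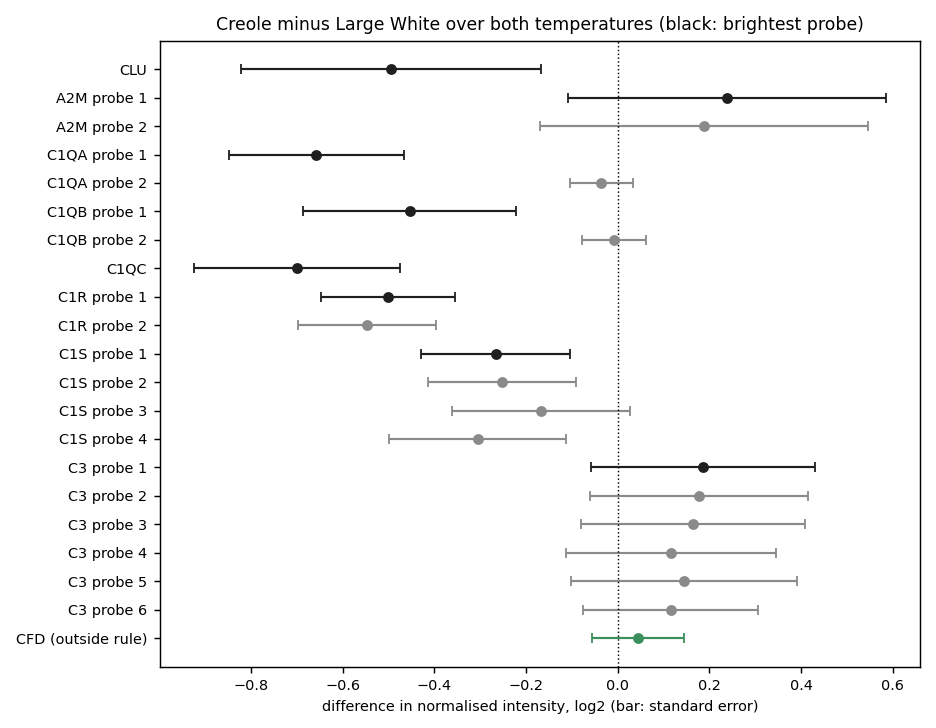
Creole minus Large White difference (log2, horizontal axis, bar 1 standard error) of every member probe over both temperatures, ordered as in the plot of heat differences. The brightest probes of the C1q chains, C1R and C1S lie below 0, between -0.70 and -0.27, and the C3 and A2M probes above it, between 0.12 and 0.24.

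The genes with the widest HS minus TN differences did not pass the breed test. CLU was at -0.49 in Creole minus Large White (SE 0.33, adjusted p = 0.520), A2M at 0.24 (SE 0.35, adjusted p = 0.825) and C3 at 0.19 (SE 0.24, adjusted p = 0.802), the 6 C3 probes ranging from 0.12 to 0.19. The C1QA and C1R calls sat close to the threshold. Without Creole TN replicate 1 the differences were -0.53 (SE 0.17, adjusted p = 0.0793) for C1QA and -0.40 (SE 0.13, adjusted p = 0.0807) for C1R, and no member was called. Within the 4 slides A2M ranged from -0.99 to 0.94, C3 from -0.69 to 0.63 and CLU from -1.53 to 0.22, with no common sign, whereas C1QA ranged from -1.48 to -0.27 and C1R from -0.77 to -0.22, lower in Creole on 4 of 4 slides for both genes, and with slide as a block the adjusted p was 0.0269 and 0.0383. Fibroblast markers also leaned low in Creole pigs, 9 of 10 being lower with a median of -0.30 and 2 called, and so did macrophage markers, 11 of 12 being lower with a median of -0.20 and 0 called. All 7 endothelial markers were lower as well, with a median of -0.27 and 3 called, and 3 of 4 T cell markers were, with a median of -0.21 and 1 called. Of the other lists, 5 of 8 adipocyte markers were lower (median -0.09) and 2 of 3 blood markers (median -0.19). So were 6 of 11 skeletal muscle markers (median -0.003) and 1 of 4 liver cell markers (median 0.19). None of the markers in these other lists was called, and 3.64% of all probes were. With the macrophage marker mean as a covariate C1QA was at -0.60 (SE 0.18, adjusted p = 0.0381) and C1R at -0.42 (SE 0.10, adjusted p = 0.00898). The part of fibroblasts, endothelial cells and T cells in the C1QA and C1R differences was not tested.

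In the F1 cross no member was called against either parent or against the parental midpoint, the comparison that asks whether the cross departs from the mean of its parents. Against Large White 0.525% of all probes were called, and 4371 of all 41517 had an unadjusted p below 0.05. Of the 20 member probes 6 did: C1QA at -0.40 (SE 0.19, adjusted p = 0.468) and 5 of the 6 C3 probes. The C3 probes vary together and are not separate results. The brightest was higher in F1 by 0.58 (SE 0.25, adjusted p = 0.386). Against the midpoint 0.246% were called and 3053 probes had an unadjusted p below 0.05. Among them were the same 5 C3 probes, the brightest at 0.49 (SE 0.22, adjusted p = 0.610). Against Creole 0.477% were called and 3685 probes had an unadjusted p below 0.05. No member probe did, and the differences ran from -0.18 to 0.44.

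The members did not vary as 1 block from animal to animal. Deviations from the group mean over the 35 arrays were closely shared by the 3 C1q chains, with Pearson's r of 0.92 for C1QA and C1QB, 0.94 for C1QA and C1QC and 0.94 for C1QB and C1QC. C1R and C1S shared them with r = 0.86. Between these sets the values were lower, from 0.49 to 0.69 for a C1q chain with C1R or C1S, and C3 was nearly unrelated to C1S (r = 0.19) while it followed A2M with r = 0.65. The CFD probe had r = 0.05 with CLU and 0.03 with A2M, but 0.58 with C1QA. All of these pairs were measured on the same arrays.

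Markers of other cell types are given beside the 18.3% of all gene names called. All 12 macrophage markers were higher in HS, 7 of them called, with a median difference of 0.90, and their mean per array, centred by gene, ran from -2.13 to 1.09 in TN and from -0.56 to 1.58 in HS. All 10 fibroblast markers were higher, 3 of them called, with a median of 0.29, and their mean ran from -1.26 to 0.29 in TN and from -0.11 to 0.42 in HS. Adipocyte markers had a median of 0.04 with 0 of 8 called, and their mean ran from -0.86 to 0.59 in TN and from -0.41 to 0.54 in HS. Endothelial markers had a median of -0.20, with 1 of 7 higher and 1 called, a lower one. The 4 T cell markers were all higher with 0 called, and of 3 measured blood markers 1 was higher and 1, a lower one, was called. Of the 11 skeletal muscle markers 1 was higher and 3 were called. Of 8 markers of liver cells, the main source of plasma C3 and A2M, 4 were measured, none was higher in HS and 1 was called. Their mean ran from -0.21 to 1.70 in TN and from -0.37 to 0.08 in HS. Creole TN replicates 2 and 5 and Large White TN replicate 3 were highest, at 1.70, 1.25 and 0.98. A liver or plasma source of the member transcripts was not tested. The albumin transcript averaged 7.05 on the TN arrays (SD 1.80) and 5.93 on the HS arrays (SD 0.45).

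Within groups, the levels of 6 of the 8 genes followed the macrophage marker mean. The same test was not run over all gene names. No background share therefore stands beside the counts given here for macrophage and fibroblast markers. Over 35 arrays, with arrays permuted within groups and p-values adjusted over 36 relations, Pearson's r was 0.80 for A2M (adjusted p = 0.00018), 0.77 for CLU (adjusted p = 0.00024), 0.76 for C1R (adjusted p = 0.00018) and 0.74 for C1S (adjusted p = 0.00045); the unadjusted p of A2M and C1R, 1e-05, is the smallest the permutations can give. Spearman's rho was 0.84, 0.79, 0.74 and 0.73 for the same genes, with adjusted p of 0.00012 for the first 3 and 0.00072 for C1S. C1QB and C1QC had r of 0.59 each (adjusted p = 0.00714, rho 0.56 and 0.57). C1QA and C3 did not pass by Pearson's r, 0.43 and 0.44 (adjusted p = 0.0759 and 0.0579), and C3 passed by Spearman's rho, 0.54 (adjusted p = 0.0136). CFD had r = -0.05 with the macrophage mean and 0.47 with the adipocyte mean (adjusted p = 0.915 and 0.0839).

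Leaving out the 2 arrays farthest from the median of the macrophage mean left r between 0.68 and 0.78 for A2M, CLU, C1R and C1S. Removing slide means as well as group means left it between 0.73 and 0.80, and within the 4 slides of 8 arrays it ran from 0.59 to 0.90 for these 4 genes. For C1QB and C1QC r was 0.49 and 0.52 without the 2 farthest arrays, and 0.545 and 0.56 with slide means removed as well. Their within-slide values spread from 0.16 to 0.82 and from 0.0018 to 0.85. With the fibroblast mean 4 genes passed, C1QB at 0.66 (adjusted p = 0.0379), C1R at 0.55 (adjusted p = 0.0478), C1QC at 0.61 (adjusted p = 0.0496) and CLU at 0.54 (adjusted p = 0.0198). By Spearman's rho only CLU did (rho 0.48, adjusted p = 0.0321). Without the 2 farthest arrays r was 0.32 to 0.37 for these 4 genes, so part of their Pearson's r rests on those arrays. With slide means removed as well it was 0.58 to 0.74, and within slides it ran from 0.53 to 0.81 for C1R, from 0.20 to 0.90 for C1QB, from 0.20 to 0.90 for C1QC and from 0.06 to 0.81 for CLU. No member passed with the adipocyte or the endothelial mean.

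**Figure D4:**
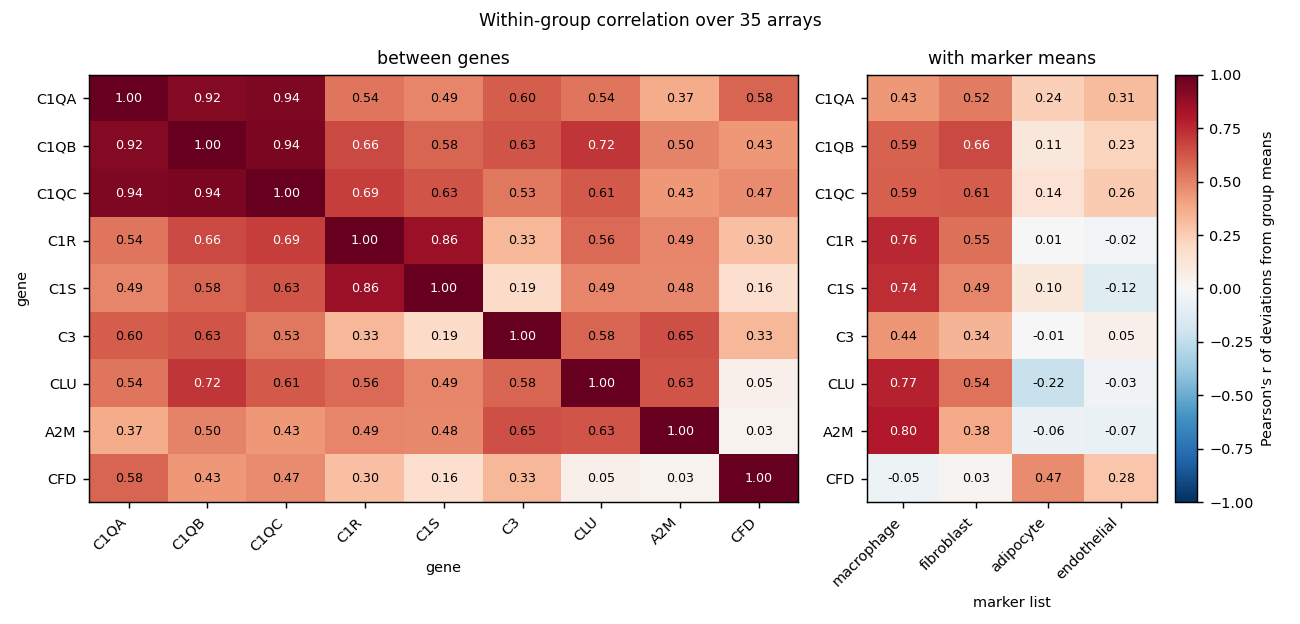
Pearson's r of deviations from group means over 35 arrays, between genes (left) and of each gene with the mean of 4 marker lists (right), on a colour scale from -1 to 1. The C1q chains form a block at 0.92 to 0.94, C1R and C1S stand at 0.86, and the macrophage column is highest for A2M, CLU, C1R and C1S at 0.74 to 0.80.

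With the macrophage marker mean of each array as a covariate, the HS minus TN differences were 1.12 (SE 0.21) for C3 and 0.94 (SE 0.20) for CLU. A2M was then at 0.54 (SE 0.20), C1QB at 0.33 (SE 0.19), C1QA at 0.24 (SE 0.17), C1S at 0.12 (SE 0.10), C1QC at 0.10 (SE 0.18) and C1R at 0.09 (SE 0.09). The covariate itself differed between TN and HS, so the fit gives the difference at equal marker level and does not separate a change of cell number from a change of expression.

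With the members themselves left out, the genes whose values were most like those of a member, by the correlation of deviations from group means over 35 arrays, differed between members. For CLU they were IL10, which encodes an anti-inflammatory cytokine (r = 0.89), NEFH, a neurofilament subunit (0.89), and PADI2, an enzyme that converts arginine to citrulline in proteins (0.88). For A2M they were ST14, a membrane protease (0.86), LAPTM5, a lysosomal protein of blood cells that is also on the macrophage list (0.85), and SMAP2 (0.85). For C1QA they were FCGR2B, an inhibitory receptor for immunoglobulin G (0.82), CST3, which encodes the protease inhibitor cystatin C (0.75), and PROCR, the protein C receptor (0.73). For C1S they were CTSK, the protease cathepsin K (0.87), EFEMP1, a matrix glycoprotein (0.87), and CD53, a leukocyte membrane protein (0.86). For C3 the values were lower, with TIFAB (0.77), TLR1, a receptor for bacterial lipopeptides (0.76), and a gene named AS-A (0.75), and for CFD they were APP (0.76), RPL29 (0.66) and WWC3 (0.65).

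The other genes of complement were then examined by role, from a list of 39 of which 20 were measured. Here and below, rose and fell mean higher and lower in HS than in TN with an adjusted p below 0.05. The fit takes no account of pen, slaughter day or litter. Between TN and HS 5 of the 20 rose and 2 fell, beside 18.3% of all gene names called, and the median of the 20 was 0.14, beside -0.03 over all gene names. Receptors held the widest differences. VSIG4, the macrophage receptor for C3 fragments, rose by 1.24 (SE 0.23, adjusted p = 0.000606), from 10.21 ± 0.84 (SD, n = 18) to 11.44 ± 0.52 (SD, n = 17). C5AR1, the receptor for C5a, rose by 1.25 (SE 0.33, adjusted p = 0.0103). CD93, a membrane protein once described as a C1q receptor, fell by 0.27 (log2 difference -0.27, SE 0.09, adjusted p = 0.0388), and ITGB2, the beta chain of complement receptors 3 and 4, was at 0.78 (SE 0.32) without passing (adjusted p = 0.0933).

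Of the classical and lectin pathway genes measured, C2, the protease that C1s cleaves, rose by 0.77 (SE 0.21, adjusted p = 0.0132), and the lectin FCN1 fell by 0.35 (log2 difference -0.35, SE 0.08, adjusted p = 0.00515). The other 4, among them MASP1 at -0.21 (SE 0.08, adjusted p = 0.0776), did not pass. C4A was not measured under its name in the files. Of 7 regulators, C4BPA, a cofactor in the breakdown of C4b, rose by 0.62 (SE 0.19, adjusted p = 0.0233) and SERPING1, the inhibitor of C1r and C1s, rose by 0.29 (SE 0.07, adjusted p = 0.00379). CFB, the alternative pathway protease, was at 0.20 (SE 0.23, adjusted p = 0.599). Of the terminal pathway only C5 was measured under its name in the files, at -0.20 (SE 0.09, adjusted p = 0.113). With the mean over all kept probes of a gene FCN1 was at -0.07 (adjusted p = 0.790) and SERPING1 at 0.18 (adjusted p = 0.0833), so for both genes the call depended on the probe. With the macrophage marker mean as a covariate VSIG4 was the only gene of the list past the threshold, at 0.59 (adjusted p = 0.0146), and with array brightness 2 were, VSIG4 and SERPING1. When probes were named through the RefSeq gene table as well, 23 genes were measured and 8 were called. Among them was C4A, the substrate of C1s, higher by 0.69 (SE 0.16, adjusted p = 0.00322).

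**Figure D5:**
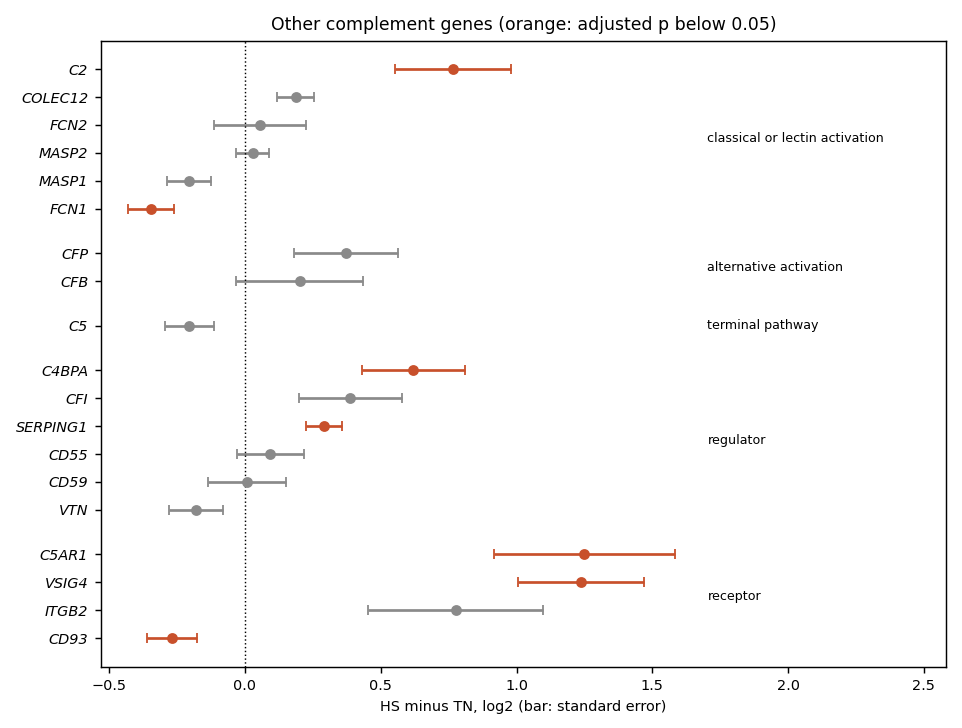
HS minus TN difference (log2, horizontal axis, bar 1 standard error) of 19 of the 20 measured genes of the wider complement list, grouped by role, with genes past the threshold in orange. VSIG4 and C5AR1 lie furthest to the right, at 1.24 and 1.25, and FCN1 and CD93 to the left, at -0.35 and -0.27.

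SERPING1 was also lower in Creole than in Large White muscle, with a difference of -0.36 (SE 0.08, adjusted p = 0.00822). CD59, which blocks the terminal complex, was at -0.61 (SE 0.17, adjusted p = 0.0382). These were the 2 called genes of the 20 in the breed comparison, beside 3.64% of all probes, and 14 of the 20 were lower in Creole with a median of -0.14.

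Around clusterin and alpha-2-macroglobulin, 22 extracellular chaperones, carriers, protease inhibitors, matrix regulators and receptors were listed and 19 measured. Between TN and HS 3 of them rose, beside 18.3% of all gene names called, none fell and the median was -0.05, beside -0.03 over all gene names. CST3, which encodes cystatin C, rose by 0.80 (SE 0.13, adjusted p = 0.00017), TIMP2, an inhibitor of matrix metalloproteinases, by 0.37 (SE 0.08, adjusted p = 0.00147) and APOE, a lipid carrier that macrophages secrete, by 0.50 (SE 0.13, adjusted p = 0.00959). PZP, a relative of A2M and its neighbour in the RefSeq gene table, was at -0.19 (SE 0.07, adjusted p = 0.0585), and the plasma carriers HP at -0.35 (SE 0.26, adjusted p = 0.374) and HPX at -0.38 (SE 0.16, adjusted p = 0.102) did not pass. LRP1, the receptor that clears A2M with its proteases, did not pass the filter on dim probes. With the macrophage marker mean as a covariate CST3 was past the threshold and TIMP2 and APOE were not.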

How the data were processed

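Muscle RNA of 35 pigs was labelled with Cy3 and hybridised by the authors to 1-colour Agilent arrays read with Feature Extraction 10.10.1.1. The deposited scanner files hold spot intensity on a linear scale with quality flags. The deposited value table holds log2 values that the authors quantile-normalised and filtered, and it served as an alternative. Here median pixel intensities were quantile-normalised without background subtraction, log2 was taken, 105 flagged spots were set to missing, and a probe was kept when any group had 75% or more of its arrays well above background. No spot was saturated.

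Fits used limma 3.58.1 in R 4.3.3 on all kept probes and arrays, with Benjamini-Hochberg adjustment and a threshold of 0.05. Temperature and breed entered an additive model, and the interaction and within-breed values a model with 1 mean per group. The random terms of the study model are not in the labels. Correlations used 100000 permutations of arrays within groups. The number of arrays limits the precision. The fits and the permutation test were tested on simulated data. The members and lists were chosen with earlier results of these data known. All members are named. The rule named up to 6 genes past the threshold per other list, by smallest p, with C4A, CFB and LRP1 by role. 1 gene of the complement list is not reported here. CD93, ITGB2, MASP1, C5, CD59, PZP, HP, HPX and ALB were named after their values were seen. For the genes most alike, the rule took the 3 highest r for CLU, A2M, C1QA, C1S, C3 and CFD. Sequences are those of the probes in the scanner files, and no genome position was assigned. Alternatives covered scaling, background, filter, slide, weights, covariates, probe averaging and leaving out each array.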

Additional observations from a re-analysis of the deposited data

How the results depend on the processing

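No paired analysis was possible because the replicate numbers follow the order of deposition and pair no animals. The alternatives are those listed under the processing, with naming through the RefSeq gene table and differences within slides chosen after seeing the data. No value turned its direction under the other alternatives, but within slides Creole minus Large White turned for A2M and C3 on 3 of 4 slides and for CLU and C1QB on 1. The members were chosen by the temperature comparison, so their calls in it are a description and nothing is read from them. Over the temperature comparison 7 members were past the threshold, against 3 with array brightness as a covariate and 2 with the macrophage marker mean, fits in which 2092 and 2431 of 41517 probes were called, while leaving out 1 array at a time gave 6 to 8. C1QA was past it in 14 of these 35 fits, with adjusted p up to 0.0735, and was lost without Creole HS replicates 1, 2, 3 or 6, Creole TN 1, 4, 5 or 6, F1 HS 1, 2 or 3, F1 TN 2, 3, 4 or 5, Large White HS 1, 3 or 4, or Large White TN 3, 4 or 5. In Creole minus Large White 2 members were past it, against 1 with normexp background correction, 0 without a filter and 1 with the mean over all kept probes of a gene, and leaving out 1 array gave 0 to 3. C1QA kept its call in 19 of 35 such fits, with adjusted p from 0.0143 to 0.0802, and lost it without Creole HS replicates 3, 4 or 5, Creole TN replicates 1, 4, 5 or 6, F1 TN replicate 3, Large White HS replicates 1, 3 or 4, or Large White TN replicates 1, 2, 4, 5 or 6. C1R kept its call in 17, with adjusted p from 0.0245 to 0.0838, and lost it without Creole HS replicates 2, 3, 4 or 5, Creole TN replicates 1, 4, 5 or 6, F1 HS replicates 1 or 4, Large White HS replicates 1, 5 or 6, or Large White TN replicates 1, 2, 4, 5 or 6. C1QC gained a call without Creole TN replicate 3 (-0.80, adjusted p = 0.0327) or Large White HS replicate 5 (-0.77, adjusted p = 0.0496). The interaction and the F1 comparisons called 0 members in all of these fits. Of the wider complement list 7 genes were past the threshold, against 2 with brightness and 1 with the macrophage mean, and leaving out 1 array gave 6 to 9. CD93 kept its call in 20 of 35 fits (adjusted p 0.0142 to 0.0637) and CD59 between breeds in 22 (0.0161 to 0.0734), whereas SERPING1 between breeds kept it in 35. CD93 lost it without Creole HS replicates 1 or 5, Creole TN 4 or 5, F1 HS 1, 2, 4 or 5, F1 TN 3, 4 or 5, Large White HS 4 or 5, or Large White TN 1 or 3, and CD59 without Creole HS replicates 1, 5 or 6, Creole TN 3, 4, 5 or 6, Large White HS 4 or 6, or Large White TN 1, 2, 3 or 6. Of the extracellular list 3 genes were past the threshold, against 5 with 75th percentile scaling and 5 with the processed signal scaled to it, and leaving out 1 array gave 3 to 5, with 5 reached without Large White TN replicate 6. The causes of these changes were not tested. Signal over background limits the account, since 20 of the 29 other complement genes named on the array were measured.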
